A study of Mus musculus with 59 samples.

Results

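The RNA that remained 4 h after transcription was stopped was compared between mouse embryonic stem cells (ESCs) lacking Zcchc8 and wild-type control cells. All 23974 genes of the deposited decay table entered the comparison, which set 2 KO libraries against 2 control libraries and used 4 of the 59 samples of the series. Of these genes, 6952 had a mean normalised read count of at least 10 over the 12 decay libraries and were tested. The 8 other decay libraries, taken after 0 h and 8 h in the drug, served to estimate the spread and to show each gene before and later in the block. All cells were ESCs that had been derived from BDF1 blastocysts and were kept in serum medium with leukaemia inhibitory factor, CHIR99021 (an inhibitor of GSK3) and PD0325901 (an inhibitor of MEK). Control cells are labelled wild type and the others Zcchc8 KO. Both received Actinomycin D at 5 µg/ml, and ERCC spike-in RNA was added to both. The sources used here do not give which exons of Zcchc8 were removed or whether the KO cells are 1 clone. No label says that replicates were grown apart, and the p-values therefore reflect only the scatter of these libraries, which could be technical.

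Zcchc8 is a zinc-knuckle protein that holds together the nuclear exosome targeting (NEXT) complex. Its partners are the RNA helicase Mtr4, encoded by Skiv2l2, and the RNA-binding protein Rbm7. NEXT binds newly made, mostly short or unprocessed nuclear RNAs and passes them to the exosome, which degrades them from the 3′ end. Actinomycin D binds DNA and halts RNA synthesis, so the level of a transcript some hours later depends on how much there was and on how fast it was lost.

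The 4 libraries at 4 h held between 859481 and 1364523 counted reads, and 1 read was worth between 0.561 and 0.969 normalised units. The replicates correlated at r = 0.933 in control and r = 0.938 in KO across genes, which are not independent replicates. At the other times r was lower or similar, at 0.84 in control and 0.91 in KO at 0 h, and 0.93 and 0.87 at 8 h. Replicate 2 of control at 0 h stood a median of 0.81 log2 units above replicate 1. A gene with a low value in this table can have lost reads in the counting: 8.47% of genes with several transcripts reached the minimum for testing, against 34.3% of genes with 1 transcript. Nanog, Stat3 and Rbm7 were listed at 0 in all 4 libraries, and an absent value of this kind says nothing of the gene's expression.

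Zcchc8 itself had normalised counts of 32.7 and 24.7 in the control libraries (45 and 32 reads) and of 21.3 and 13.6 in the KO libraries (38 and 14 reads). The groups did not overlap, but the difference was not called (log2 change −0.71, adjusted p = 0.845 by limma). At this depth the 4 h libraries therefore check their own genotype labels only in part. Skiv2l2 stood at 122 and 137 in control and at 151 and 145 in KO. Its log2 change was 0.20 as deposited and −0.10 after rescaling, and neither was called.

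After 4 h, 52 of 6952 genes (0.748%) were higher in KO and 0 (0%) were lower, at an adjusted p below 0.05 (limma, Benjamini-Hochberg over the 6952 genes). At an unadjusted p below 0.05, limma gave 619 higher and 58 lower genes. At an adjusted p below 0.05, edgeR's quasi-likelihood test called 67 higher and 2 lower. The median called gene was 2.59 log2 units higher, or 2.48 with the 2 genes that had 0 control reads set at the lower bound given below. The whole distribution was shifted, since the median of all genes tested was 0.29 log2 units higher in KO. TMM scaling, which sets each library so that the bulk of genes is centred, moved that median by 0.29 to −0.0038. Replicates at 4 h also differed from each other as deposited, by a median of 0.37 log2 units in control and 0.21 in KO. Whether the shift between genotypes is more than such gaps between libraries was not tested. After TMM scaling 48 genes (0.69%) were higher and 17 (0.245%) lower, so that 73.8% of calls were higher instead of 100%. The higher calls had 38 genes in common, which is 73.1% of the 52 and 79.2% of the 48. The 10 called higher after TMM scaling alone were Acta2, Cxcl14, Gas6, H2afj, Hmga2, Lefty2, Myl9, Ptprv, Tagln and Tnc. In all 52 genes both KO values lay above both control values, as they did in 37% of all genes tested, while KO lay below control in 8.7%.

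The number of calls depended on single libraries. Without control replicate 1 or 2 at 4 h it was 13 or 30, and without KO replicate 1 or 2 at 4 h it was 15 or 12. Without control replicate 1 or 2 at 0 h, which enter only through the shared spread, it was 180 or 187. Of the 52 genes, 7 stayed called whichever of the 4 libraries at 4 h was left out, namely Hist1h4i, Tspan31, Ap1b1, Brd2, Spata2l, AY512931 and 9030025P20Rik, and 26 were lost each time. Of the 7, Ap1b1 and Brd2 belong to the genes with several transcripts, as do the called genes Rbpj, Fut8 and Acrbp, so their low values are uncertain. The transcript of 9030025P20Rik has 58.0% of its 50-base words in 278 genes elsewhere, so its reads may not all be its own. The test by edgeR on recovered reads called 50 of the 52 and DESeq2 46.

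**Figure D1:**
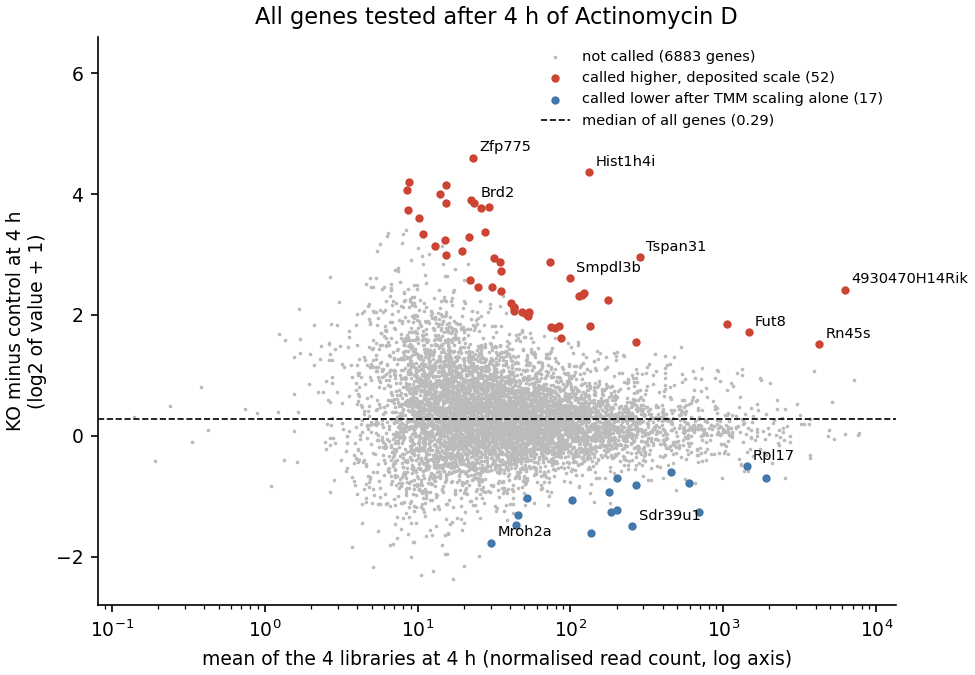
Each point is 1 of the 6952 genes tested, with the mean of the 4 libraries at 4 h on a log axis and the KO minus control difference of log2(value + 1) on the other. The 52 genes called higher (red) lie between 1.52 and 4.60, the 17 genes called lower only after TMM scaling (blue) lie between −1.76 and −0.50, and the dashed line marks the median gene at 0.29.

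Hist1h4i, on chromosome 13, had the lowest adjusted p of all genes. It is 1 of the gene copies for histone H4, the core histone that pairs with H3 in the nucleosome. Its normalised counts were 10.2 and 12.4 in control (14 and 16 reads) and 217 and 290 in KO (387 and 299 reads). Means were 11.3 ± 1.54 and 253 ± 51.4 (SD, n = 2 each), a 22.5-fold difference (log2 change 4.36, SE 0.399, adjusted p = 3.10e-10). The call held without each of the 4 libraries in turn, with a highest adjusted p of 4.94e-06. Before the drug the same gene had stood at 213 and 255 in control and at 495 and 518 in the KO cells. Those groups did not overlap, but the difference was not called (log2 change 1.12, adjusted p = 0.101). Control cells thus retained 4.81% of the untreated level at 4 h and KO cells 50.0%, on the deposited scale. At 8 h the values were 11.3 and 8.58 in control and 220 and 246 in KO, close to those at 4 h in both genotypes.

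Messenger RNAs of replication-dependent histones carry no poly(A) tail and end just past a short stem-loop that binds the protein SLBP. The stem-loops of 4 H4 copies and of the linker histone gene Hist1h1e are shown because Hist1h4i parted from these genes in the comparison. They are given 5′ to 3′ in DNA letters as in GENCODE M21 transcripts (GRCm38), with the stem-loop of 16 bases in capitals and 5 bases on each side in lower case.
Hist1h4i: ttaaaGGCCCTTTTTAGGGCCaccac
Hist2h4: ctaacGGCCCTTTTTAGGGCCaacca
Hist1h4h: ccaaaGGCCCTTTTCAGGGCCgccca
Hist1h4j: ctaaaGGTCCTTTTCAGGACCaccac
Hist1h1e: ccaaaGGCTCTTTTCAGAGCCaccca
With positions counted from 1 at the first capital, Hist1h4i differs from Hist1h4h by C10T, Hist1h4j by C3T and G14A, and Hist1h1e by C4T and G13A. The stem-loop was searched on the transcript strand by the form of the histone stem-loop, and 0.0494% of all 141767 transcripts hold it. It was found for 44 of the 67 histone genes in the table and for 11 of the 13 H4 genes. Of these 11, 7 have the letters of Hist1h4h, 2 those of Hist1h4j, and only Hist2h4 those of Hist1h4i. The annotated Hist1h4i transcript runs on for 330 bases past the stem-loop, which is not particular to it, since that of Hist1h4j does so for 385 bases and that of Hist2h4 for 1257.

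Hist2h4, with the same stem-loop letters, did not share the behaviour of Hist1h4i. Its values were 10.2 and 13.1 in control and 8.97 and 21.3 in KO, which overlap (log2 change 0.25, adjusted p = 0.951). Hist1h4j had 13.8 and 11.6 against 8.97 and 19.4, and Hist1h4h 99.0 and 164 against 86.9 and 95.9. None of the 10 other H4 genes tested was called on either scale, and their log2 changes ran from −0.77 to 0.49 as deposited and from −1.06 to 0.20 after TMM scaling. Reads of H4 copies can be assigned wrongly: 28.9% of the 50-base words of the Hist1h4i transcript also occur in 11 other genes, most of them H4 copies. Among the 50 other replication-dependent histone genes tested, KO lay below control without overlap in 24 and above it in 6 after TMM scaling, with a median log2 change of −0.40. Over all genes tested the same shares were 24.7% below and 24.5% above, with a median near 0. Hist1h1e, which compacts linker DNA, is in the lower calls described below. In these 50 genes the median level left at 4 h was 5.62% of the untreated one in control and 4.12% in KO.

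**Figure D2:**
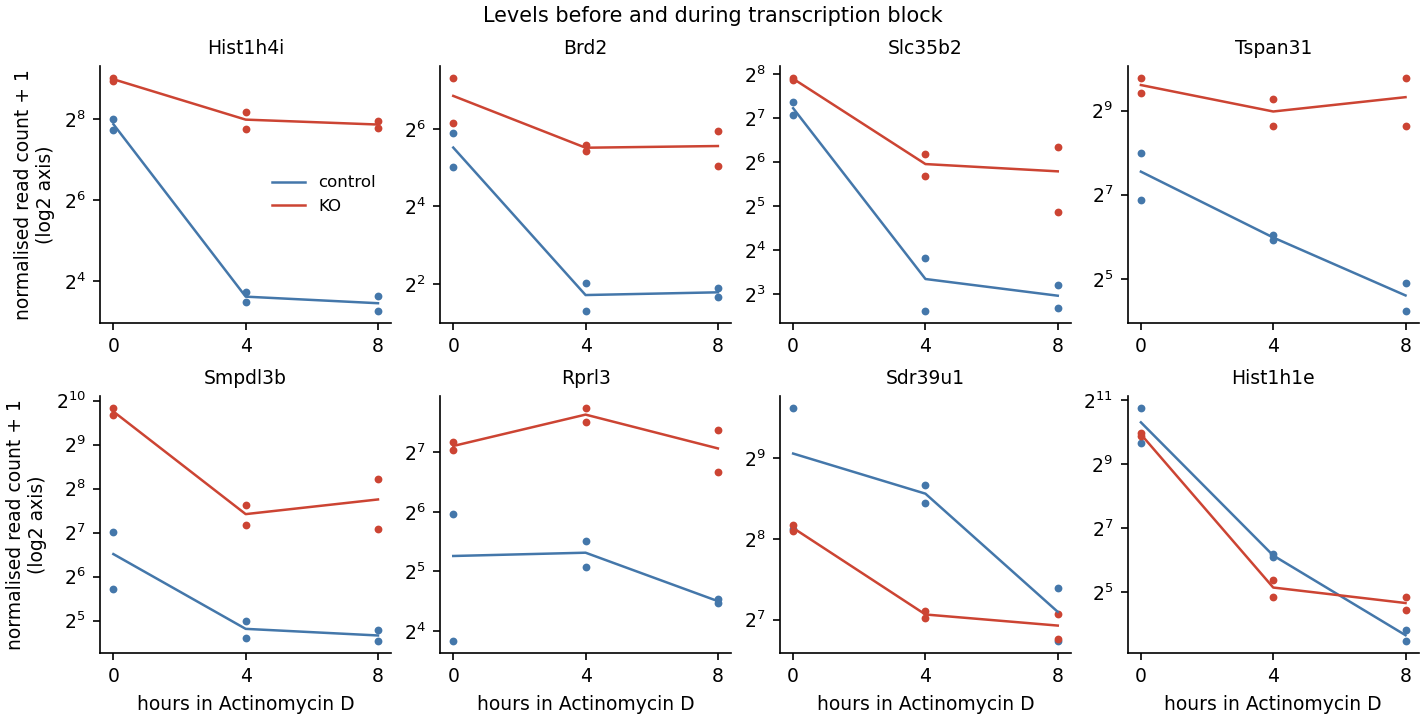
Normalised read count plus 1 on log2 axes (each panel with its own range) against hours in Actinomycin D, with points for the 2 libraries of each group and lines through the group means. In Hist1h4i, Brd2 and Slc35b2 the genotypes lie nearer to each other at 0 h than at 4 h, while Tspan31, Smpdl3b and Rprl3 were called higher in KO at each of the 3 times.

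The called genes averaging 100 or more in KO are given by the known roles of their products, beginning with proteins of membranes and of sugar and lipid processing. From each of 4 lists 1 member was called, where 0.748% of all genes tested were. Tested were 7 tetraspanins, 11 clathrin adaptor genes, 11 sphingolipid enzymes and 13 genes of glycoprotein processing in the endoplasmic reticulum. The lists were written with earlier results of these data known, so these counts are a description only. Tspan31, a tetraspanin (a small scaffold protein of membranes), had 59.7 and 64.9 in control and 393 and 613 in KO, an 8.08-fold difference (log2 change 2.96, SE 0.420, adjusted p = 3.66e-05). Ap1b1, the large beta subunit of the AP-1 clathrin adaptor, had 17.5 and 16.2 against 114 and 147 (7.77-fold, log2 change 2.87, adjusted p = 0.000343). Smpdl3b, a membrane-anchored phosphodiesterase related to acid sphingomyelinase, had 23.3 and 30.9 against 144 and 197 (6.29-fold, log2 change 2.61, adjusted p = 0.000330). In each of these the lower KO value was at least 4 times the higher control value. Mogs, the glucosidase that begins trimming of N-linked sugars in the endoplasmic reticulum, had 31.3 and 44.0 against 170 and 207 (log2 change 2.31). Fut8, which adds the core fucose to the same sugars in the Golgi, had 690 and 662 against 1980 and 2508 (log2 change 1.72). Fut8 was thus among the called genes with the highest levels, and its call was lost after TMM scaling (log2 change 1.42, adjusted p = 0.0711). Tex2 had 66.9 and 54.1 against 257 and 323 (log2 change 2.24), and Scarf2, a scavenger receptor, 37.1 and 28.6 against 117 and 115 (log2 change 1.80). The call of Scarf2 was lost after TMM scaling too (adjusted p = 0.0548). Of these genes only Tspan31 and Ap1b1 kept the call without each of the 4 libraries at 4 h in turn. The Tspan31 transcript shares 39.3% of its 50-base words with the overlapping Cdk4, whose own log2 change was 0.29 (adjusted p = 0.900).

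Among the other named genes, Rbpj, the DNA-binding partner of the Notch receptor, had 30.6 and 44.0 in control against 127 and 138 in KO (log2 change 1.82, adjusted p = 0.0192). Noxo1, an organiser of the superoxide-forming NADPH oxidase NOX1, had 40.8 and 28.6 against 98.7 and 147 (log2 change 1.79, adjusted p = 0.0455 by limma, or 0.0696 after TMM scaling). Rbpj has 24.3% of its 50-base words in 62 other genes, and Noxo1 shares 44.8% with the overlapping Tbl3. Tbl3, a gene of ribosome assembly, was not called (log2 change 0.25, adjusted p = 0.940).

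Noncoding RNAs were 12 of the 52 called genes (23.1%), against 5.22% of the genes tested. The highest in the KO libraries was 4930470H14Rik on chromosome 17, with 1776 and 2156 in control and 9095 and 12088 in KO (5.39-fold, log2 change 2.42, SE 0.394, adjusted p = 0.000212). Its transcript has 47.4% of its 50-base words in 39 genes elsewhere, so the gene behind its reads is uncertain. Rprl3, a gene related to the RNA of ribonuclease P, had 32.7 and 44.8 against 182 and 214 (log2 change 2.34). The pseudogene Olfr856-ps1, of the olfactory receptor family, had 436 and 458 against 1341 and 1958 (log2 change 1.86). All 3 stood apart without overlap, and all 3 were also called higher at 0 h and at 8 h. Kcnq1ot1, the long nuclear RNA that runs antisense to Kcnq1 and silences its imprinted domain, had 45.1 and 75.7 against 196 and 221 (log2 change 1.81, adjusted p = 0.0170). It was not called at 0 h (log2 change 0.70, adjusted p = 0.382). Rn45s, the ribosomal RNA precursor, had 1967 and 2369 against 5347 and 7151 (log2 change 1.52, adjusted p = 0.0469), at 1.23% of its untreated level in control and 2.92% in KO. Trp53cor1, a p53-induced nuclear RNA also known as lincRNA-p21, had 2.18 and 6.95 against 49.3 and 52.3 (log2 change 3.36, adjusted p = 0.000212). The Trp53cor1 transcript shares 46.1% of its 50-base words with the overlapping AC167363.1 and Gm27599. The other noncoding calls were AY512931, Gm4262, 4930444M15Rik, 1700125G22Rik, 5330411J11Rik and 4930578M01Rik.

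**Figure D3:**
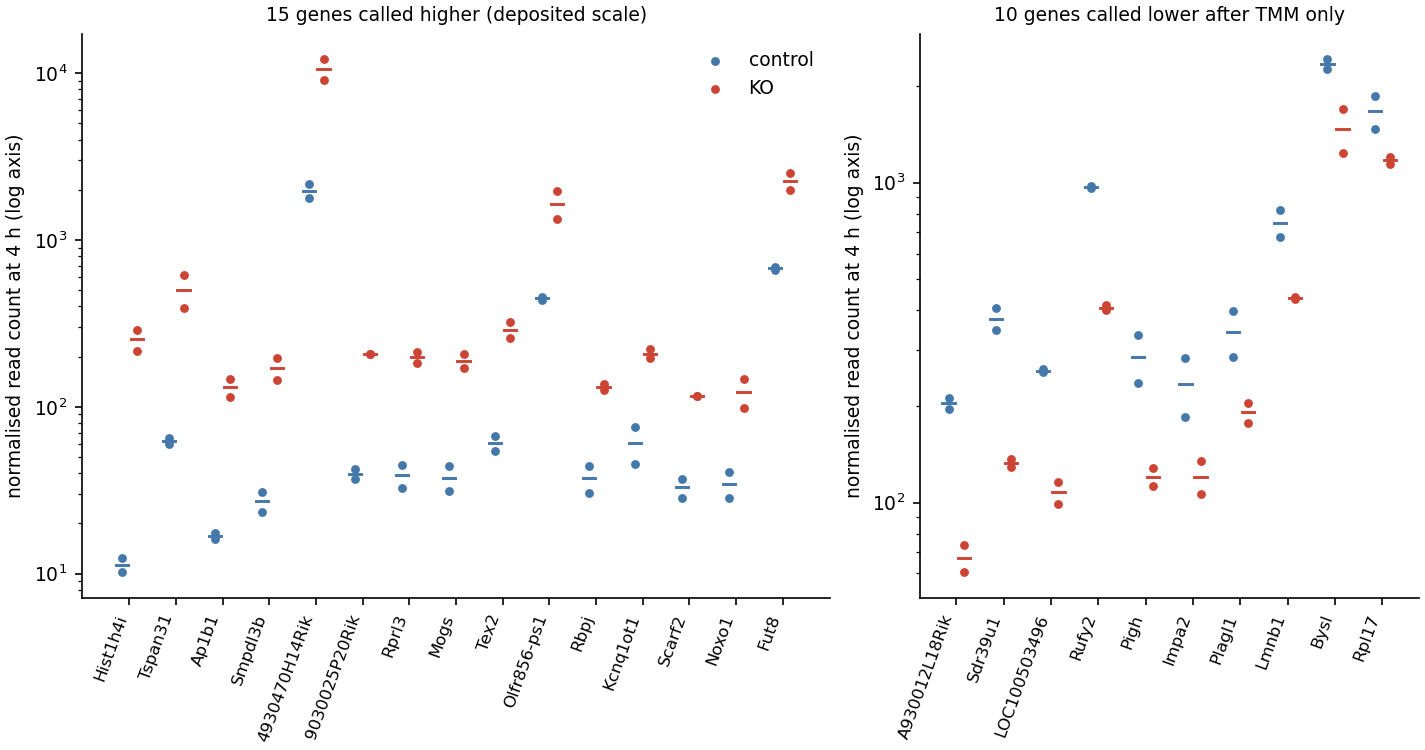
Normalised read counts at 4 h on log axes for the 15 genes with the largest called rises among those averaging 100 or more in KO (left) and for 10 genes called lower after TMM scaling only (right), with 1 point for each library and a bar at each group mean. In every one of the 25 genes the 2 control points and the 2 KO points do not overlap, from Hist1h4i at 11.3 against 253 to Rpl17 at 1670 against 1174.

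The remaining calls were mostly of low genes, and are grouped here by the known roles of their products, a grouping made after their values were seen. Brd2, a bromodomain reader of acetylated histones, had 1.46 and 3.09 in control and 42.0 and 47.5 in KO (a log2 change of 3.85 with an SE of 0.615, adjusted p = 0.000202). Spata2l had 2.18 and 3.09 against 38.7 and 60.1 (log2 change 3.77, adjusted p = 0.000183). Brd2 is 1 of the called genes with several transcripts, whose low values are uncertain. Both kept the call without each of the 4 libraries at 4 h. Receptors, adhesion molecules and their partners were Plxnd1 (a semaphorin receptor), Cd180 and Ticam1 (of toll-like receptor signalling), Shc2, Dock3, Hepacam, Cdh2 (N-cadherin), Mog and Bgn (the matrix proteoglycan biglycan). Their log2 changes ran from 1.56 in Bgn to 3.90 in Plxnd1, which was 2.41 without control replicate 1 of the 4 h libraries and 5.40 without control replicate 2. Cdh2 and Bgn are also expressed in mesenchymal cells, whose markers were higher in KO as described below. Enzymes and transporters of the Golgi and of lipids were Chst5, Slc35b2 (which brings the sulphate donor into the Golgi), Slc35e2, Dhdds (of dolichol synthesis), Fads3 and Plin4. Slc35b2 had 5.09 and 13.1 against 50.5 and 71.7 (log2 change 2.72, adjusted p = 0.00183). Genes of the cytoskeleton were Myo1f, Nefh, Inf2 and Ddn, with log2 changes of 2.95, 2.05, 1.62 and 3.24. The last calls were Zfp775, Acrbp, Nubp2, Ttc9, Cpne5, 2310014L17Rik, Gm3435, Spats1 and 9030025P20Rik. Gm3435 cannot be told from 9030025P20Rik and Ermard by most reads, since 90.8% of its 50-base words occur there.

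In 25 of the 52 called genes the control mean at 4 h was below 10, and in 9 of them the control libraries held at most 3 reads together. 1700125G22Rik and 5330411J11Rik had 0 control reads. With a floor of 3 reads per library they were at least 7.62-fold and 7.84-fold higher in KO. Zfp775, a zinc finger gene, had 2 control reads and 114 KO reads, a ratio of 54.0 at the deposited scale with an exact 95% interval of 14.6 to 451. Ticam1, the adaptor TRIF, had 1 and 47 reads, a ratio of 44.5 with an interval of 7.61 to 1796. Chst5, a sulphotransferase, had 2 and 82 reads, a ratio of 38.9 with an interval of 10.4 to 326. These intervals cover counting error only. They leave out the spread between replicates, and the 3 genes were called on the same reads. The size of each ratio is therefore poorly fixed.

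The 17 genes lower in KO were called only after TMM scaling, and all 17 had log2 changes below 0 on the deposited scale as well. Sdr39u1, of the short-chain dehydrogenase family, had 346 and 406 in control and 129 and 137 in KO (log2 change −1.49 as deposited, adjusted p = 0.0786, and −1.79 after TMM scaling, adjusted p = 0.00101). Rufy2, an endosomal protein, had 964 and 973 against 415 and 399 (log2 change −1.55 after TMM scaling, adjusted p = 0.00382). A930012L18Rik had 212 and 196 against 60.5 and 73.6 (log2 change −1.90 after TMM scaling, adjusted p = 0.00933). In these 3 genes the replicates lay close together and the groups far apart. Pigh, of the enzyme that starts GPI anchor synthesis, had 236 and 333 against 113 and 128 (−1.52 after TMM scaling). Impa2, an inositol monophosphatase, had 186 and 283 against 106 and 135 (−1.23). Lmnb1, which encodes lamin B1 of the nuclear lamina, had 677 and 822 against 433 and 440 (−1.07), and Rpl17, a protein of the large ribosomal subunit, 1473 and 1868 against 1145 and 1203 (−0.80). Bysl, which acts in assembly of the small ribosomal subunit, had 2270 and 2430 against 1242 and 1698 (−0.99). The remaining 2 of the named 10 were the imprinted zinc finger gene Plagl1 (−1.12) and LOC100503496 (−1.56). Hist1h1e had 67.7 and 71.1 against 27.5 and 40.7 (−1.32), and the others were Cox20, Mroh2a, Ptprf, Grin1os, BC065397 and Cdx1. Sdr39u1 shares 64.8% of its 50-base words with the overlapping Khnyn, Cox20 87.6% with the overlapping Hnrnpu and Rpl17 44.7% with 51 genes elsewhere, so the gene behind their reads is uncertain. These calls depend on the 4 libraries together, because leaving out any 1 of them left between 1 and 3 lower genes.

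The 52 genes were next set beside the same contrast in the untreated cells and at 8 h. The group means there come from other libraries, but each gene's spread was estimated from all 12 together. The filter for testing also used the mean over all 12, so a gene low in control at 4 h could enter through high values at 0 h or 8 h. Calls of a gene at the 3 times are therefore not independent, and the shares below are a description only. At 0 h 29 of the 52 (55.8%) were called higher, where 4.23% of all genes were, and these 29 are 9.86% of the 294 calls at 0 h. At 8 h 40 (76.9%) were called higher, where 4.88% of all genes were. After TMM scaling 22 of the 48 genes were also called at 0 h, where 1.35% of all genes were, and 28 at 8 h, where 1.44% were. Lower calls were few at every time. They made up 0.0719% of genes at 0 h and 0.0144% at 8 h as deposited, and 0.388% and 0.273% after TMM scaling. Of the 17 genes lower at 4 h after TMM scaling, 9 were also among the 27 lower calls at 0 h, namely Sdr39u1, Rufy2, Pigh, Impa2, Lmnb1, Rpl17, Plagl1, BC065397 and Grin1os, and 4 among the 19 at 8 h, namely Impa2, Lmnb1, Cdx1 and Ptprf. The difference was above 0 in 51 of the 52 at 0 h and in all 52 at 8 h, against 5413 and 5938 of the 6952 genes. After TMM scaling it was above 0 in 48 and 51 of the 52, against 3536 and 3443 of the 6952. The exception was 2310014L17Rik, at 42.5 in control and 28.2 in KO before the drug and at 5.59 and 38.2 at 4 h. Called at each of the 3 times were 25 genes, among them Tspan31, Ap1b1, Smpdl3b, Mogs, Tex2, Fut8, Rprl3, Zfp775 and 4930470H14Rik. Called at 4 h alone were 8 genes, which were Plxnd1, Cdh2, Ticam1, Nubp2, Plin4, Fads3, Bgn and 5330411J11Rik. Cdh2 had 12.4 and 18.5 in control against 58.9 and 80.4 in KO at 4 h, while its means at 0 h were 33.9 and 38.1.

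Whether a difference at 4 h exceeded that at 0 h was tested for every gene as the interaction of genotype and time. Hist1h4i was the only gene called, with a difference of 3.25 log2 units (SE 0.564, adjusted p = 0.00542) as deposited and 3.39 (adjusted p = 0.000917) after TMM scaling. It is 1 of 6952 genes (0.0144%). At an unadjusted p below 0.05 there were 42 genes with a larger difference at 4 h and 179 with a smaller one. Brd2 (2.56), Spata2l (2.52), Slc35b2 (2.04), Ticam1 (2.98) and 2310014L17Rik (3.11) had positive interactions that did not pass the adjustment (adjusted p near 1.00 for each). Calls present at 4 h and absent at 0 h are therefore not shown to differ between the times, other than that of Hist1h4i. The interaction of Hist1h4i missed the threshold once control replicate 1 or KO replicate 2 of the 4 h libraries, or any 1 KO library of the untreated cells, was left out.

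**Figure D4:**
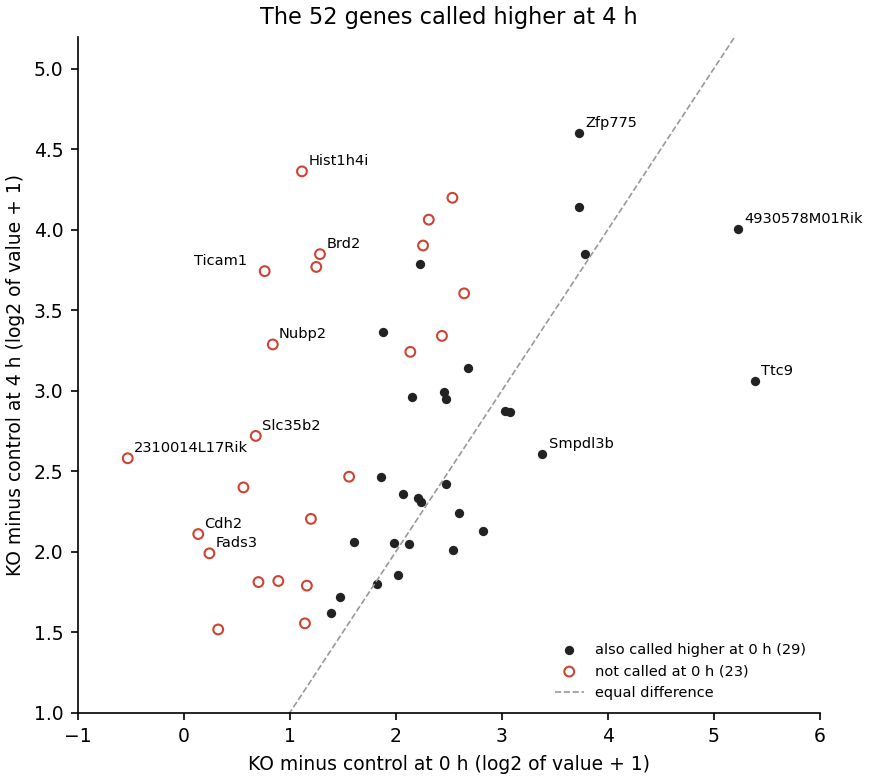
The 52 genes called higher at 4 h, with the KO minus control difference of log2(value + 1) at 0 h on the horizontal axis and at 4 h on the vertical axis; the dashed line marks equal differences. Filled points are the 29 genes also called at 0 h, open points the 23 that were not, and Hist1h4i (1.12 at 0 h, 4.36 at 4 h) is the gene whose 2 differences were shown to differ.

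The called genes kept less of their untreated level in control cells than most genes did. Over the 52 genes the median level left at 4 h was 24.4% of that at 0 h in control and 45.0% in KO on the deposited scale, against 66.8% and 61.8% over all genes tested. After TMM scaling these medians were 36.2% and 72.2% for the 52 genes, against 102% and 101% over all genes. TMM scaling centres the bulk of genes at every time, so the 102% and 101% are set by it and do not measure RNA left. Since a low control value at 4 h also helped a gene to be called, the shares of the 52 genes are a description and support nothing. Smpdl3b kept 30.0% in control and 19.8% in KO, and 4930470H14Rik 37.5% and 39.9%. In both of these the difference at 0 h (log2 changes of 3.38 and 2.48) was no smaller than that at 4 h. Exons of 8 of the 52 genes (15.4%) overlap exons of a coding gene on the opposite strand, against 22.2% of all genes tested. Whether reads were counted by strand is unstated, so such genes and their partners cannot be told apart.

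The calls were spread unevenly over the chromosomes. Chromosome 17 carried 14 of the 52 genes (26.9%) and 5.24% of the genes tested, and 3.85% of its genes were called against 0.748% overall. These genes were 4930470H14Rik, 9030025P20Rik, Gm3435, Noxo1, Nubp2, Trp53cor1, Cpne5, Myo1f, Brd2, Mog, Spats1, Slc35b2, Plin4 and Ticam1. Gm3435 has 90.8% of its 50-base words in 9030025P20Rik and Ermard, so its call may not be separate from that of 9030025P20Rik. 9030025P20Rik has 58.0% and 4930470H14Rik 47.4% in genes elsewhere, so the chromosome behind their reads is uncertain. In RefSeq gene order the 14 genes run from position 4 to position 286 of the 364 tested genes, so they form no single block. The other genes of the chromosome did not move with them, since its median log2 change was −0.02 after TMM scaling. The share on chromosome 17 was 25.4% of the edgeR calls and 15.5% of the DESeq2 calls, and it was 8.99% of the 278 genes called from the 4 libraries alone. As deposited, 23 of 294 calls at 0 h and 28 of 339 at 8 h were on this chromosome. After TMM scaling it held 10 of 94 calls at 0 h, 10 of 48 at 4 h and 16 of 100 at 8 h.

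The medians of chromosomes 18, 6 and 8 stood apart from those of the others. After TMM scaling the median log2 change at 4 h was −0.37 over 202 genes of chromosome 18, 0.25 over 336 genes of chromosome 6 and 0.17 over 420 genes of chromosome 8. At 0 h the same medians were −0.39, 0.31 and 0.19, and at 8 h −0.41, 0.24 and 0.20, so that the sizes were alike at all 3 times in separate libraries. Of the other autosomes and X, none was beyond −0.14 or 0.12 at 4 h. KO lay below control without overlap in 49.5% of chromosome 18 genes, against 24.7% of all genes tested, and 5 of the 17 lower calls are there, namely A930012L18Rik, Impa2, Lmnb1, Rpl17 and Cdx1. The changes of these 5 genes were below 0, like the median of the chromosome, and larger in size than that median. The part of the chromosome in their calls was not tested. Mogs, Plxnd1, Zfp775 and Acrbp are on chromosome 6, and Rprl3, Spata2l, Chst5 and AY512931 on chromosome 8, with differences far above those medians.

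**Figure D5:**
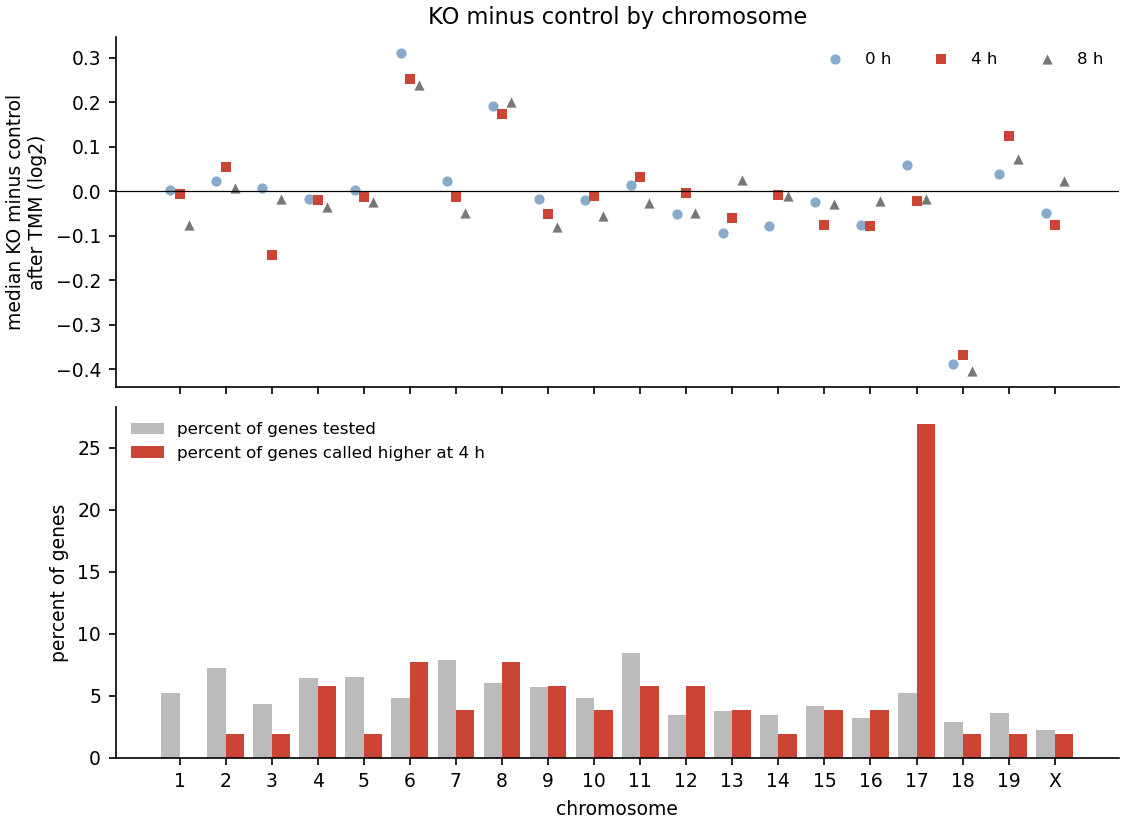
The upper panel gives the median KO minus control difference (log2, after TMM scaling) of the genes tested on each autosome and X at 0, 4 and 8 h, and the lower panel the percent of genes tested and of the 52 called genes on each. Chromosome 18 is lowest at each time (−0.39, −0.37 and −0.41), chromosomes 6 and 8 are highest, and chromosome 17 holds 26.9% of the called genes.

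The machinery of nuclear RNA decay was measured in part. Of 9 nuclear exosome genes tested none was called, and the median log2 change was −0.08 after TMM scaling. Exosc6, of the exosome core, had 11.6 and 3.09 in control and 17.9 and 36.8 in KO (adjusted p = 0.201). Dis3, a catalytic subunit, had 69.1 and 85.0 against 93.0 and 96.9 (adjusted p = 0.908). Of 9 genes for other nuclear decay adaptors and cap-binding partners none was called. Zfc3h1, which joins Mtr4 in the adaptor for polyadenylated nuclear RNA, had 55.3 and 90.4 against 43.7 and 49.4 (log2 change −0.89 after TMM scaling, adjusted p = 0.241). Of 9 nuclear long noncoding RNAs Kcnq1ot1 alone was called, where 0.748% of all genes tested were, and the median after TMM scaling was 0.23. Dleu2, a host of miRNAs, had 1.46 and 3.86 against 14.6 and 38.7 but missed the threshold (log2 change 2.85, adjusted p = 0.0683). Malat1, abundant in nuclear speckles, had 1887 and 3128 against 3208 and 3820 (log2 change 0.53, adjusted p = 0.715).

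The identity of the cells was checked against marker genes. Pou5f1, the core pluripotency factor, stood at 223 and 314 in control and 242 and 266 in KO, and Dppa5a at 366 and 511 against 432 and 409, both overlapping between the groups. Of 20 naive pluripotency genes tested none was called, with a median log2 change of 0.17 after TMM scaling and a range of −0.75 to 2.01. Without overlap, 7 of the 20 (35%) lay higher in KO and 5 (25%) lower, against 24.5% and 24.7% of all genes tested. Of 28 such genes in the table, 5 were at 0 in all 4 libraries (Nanog, Esrrb, Stat3, Tbx3 and Tcl1). Blood and endothelial markers summed to between 0 and 5 reads per library, with 8 of 11 at 0.

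Fibroblast and mesenchymal markers were higher in KO as a group. Their summed normalised count was 10769 and 13075 in the control libraries and 22130 and 24010 in the KO libraries, and after TMM scaling 12665 to 13619 against 20068 to 21384. Of 22 tested, 21 lay above control without overlap after TMM scaling and 0 below, against 24.5% and 24.7% of all genes tested. The median log2 change after TMM scaling was 0.76 at 4 h, 0.78 at 0 h and 0.08 at 8 h. None of the 22 was called as deposited, and Acta2 and Tagln, both of contractile cells, were called after TMM scaling. Tagln had 234 and 314 in control against 622 and 613 in KO (log2 change 0.89 after TMM scaling, adjusted p = 0.0470). Cdh11 had 53.1 and 83.4 against 162 and 183, and Thy1 78.6 and 120 against 216 and 272. In these bulk samples, fewer cells of a type and less RNA per cell cannot be told apart. The defining markers Col1a1 (4580 and 5357 in control, 9051 and 9692 in KO) and Vim were well above 0 in both genotypes, while Pdgfrb, Postn and Sparc were at 0. The part of these markers in the differences above was not tested. Cdh2 and Bgn are among the 52 calls, and Myl9, Tnc, Gas6, Cxcl14 and Hmga2 were called higher after TMM scaling alone. They were picked from genes called higher, so their direction was fixed by that choice and supports nothing.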

How the data were processed

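Total RNA sequencing of 12 libraries in 6 groups (2 replicates each) was used; the other 47 samples were not analysed here. The deposited values are a normalised signal: per the file headers and values, the authors' read counts per RefSeq transcript divided by 1 factor per library. Whole reads were recovered for 100% of values within 0.001 reads. TopHat2 2.1.1, HTSeq 0.6.0, DESeq2 and mm9 are named, without settings, per the submitters' processing notes. After 978 repeated of 33896 rows were dropped, 32918 transcripts were summed by symbol. The table held 0 spike-in rows.

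The test was limma 3.58.1 (R 4.3.3, trend and robust, two-sided) on log2(value + 1), with 1 fit of 6 group means. Changes on this scale understate those of low genes. TMM scaling (edgeR 4.0.16, over the genes tested), edgeR's quasi-likelihood test and DESeq2 1.42.0 on the recovered reads, other pseudocounts and filters, and left-out libraries were alternatives. Annotation (GENCODE M21, GRCm38; 6919 of 6952 tested symbols matched) served for chromosome, overlap and transcript sequence, and RefSeq for gene order, with no coordinates, since the files are on mm9.

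The comparison, the gene lists and the lists' members were chosen with earlier results of these data known. Named were Zcchc8, Skiv2l2 and Rbm7, the 15 largest called rises among genes averaging 100 or more in KO whose replicates do not overlap, the 10 lower genes with the smallest p after TMM scaling, genes called for the interaction, and at most 4 genes per described list, by smallest p. All other called genes at 4 h are given by symbol, and further genes were picked after their values were seen. Replicate numbers did not pair the libraries.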

Additional observations from a re-analysis of the deposited data

Results flagged for a closer look

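Hist1h4i was picked out because its KO minus control difference was not the same at 4 h as at 0 h, by the test of the interaction: the difference was 3.25 log2 units larger at 4 h (SE 0.564, adjusted p = 0.00542 by limma). It was the only 1 of 6952 genes called. Both KO libraries lay above both control libraries at 4 h.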

How the results depend on the processing

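Depth limits this comparison: in 25 of the 52 called genes the control mean was below 10, and the 2 libraries in each group leave the spread to be borrowed from all 12. The 52 higher genes became 97 with DESeq2, 13 with no filter on low values, 278 from the 4 libraries alone and 237 from those libraries after TMM scaling, and ranged from 12 to 187 with single libraries left out. TMM scaling with fewer libraries was chosen as an alternative after seeing the data. The 0 lower genes became 17 with TMM scaling, 17 with DESeq2 size factors in limma, 2 with edgeR on the deposited scale, 32 with edgeR after TMM scaling, 49 with DESeq2, 2 at a mean of at least 50, 16 from the 4 libraries alone and 226 from those after TMM scaling, and ranged from 0 to 8 with single libraries left out. After TMM scaling with 1 library of the 4 h set left out (first control replicate 1, then control replicate 2, KO replicate 1 and KO replicate 2), the higher calls were 15, 12, 9 and 6 and the lower calls 1, 3, 3 and 1. Genes with a larger difference at 4 h than at 0 h went from 1 to 0 with no filter and to 2 from the 4 h and 0 h libraries alone after TMM scaling, with a range of 0 to 3 with libraries left out. Genes with a smaller one ranged from 0 to 27 (27 without control 0 h replicate 1). The cause of these differences was not tested.

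The median log2 change of 0.286 became −0.00378 with TMM scaling (the same from the 4 libraries alone), −0.00115 with DESeq2 size factors, −0.00736 with edgeR after TMM scaling and −0.00397 with DESeq2. After TMM scaling without the 4 libraries in the order above it was −0.0107, −0.00883, 0.00224 and 0.0203. These scalings centre the bulk of genes by construction. Skiv2l2, not called in any of these, turned to −0.101 (TMM scaling, also from the 4 libraries alone), −0.0987 (DESeq2 size factors), −0.0947 (edgeR after TMM scaling), −0.0934 (DESeq2), and after TMM scaling −0.204 with control replicate 2 of the 4 h set left out and −0.235 with KO replicate 1 left out. Of the 64 genes for which every alternative was run (the 52, 10 lower ones, Zcchc8 and Skiv2l2), no other changed direction. Among the other genes with a printed change, Hist2h4, Cdk4 and Tbl3 turned to −0.03, −0.01 and −0.05 after TMM scaling.

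With the replicate number as a block, 107 genes were higher and 6 lower, and all 52 were among the 107. Deviations of same-numbered libraries correlated at −0.0703 to 0.117, so the numbers were not taken to pair the libraries.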

Other observations

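Gene groups outside the calls also differed in how many members separated by genotype at 4 h. After TMM scaling, 43 of 70 ribosomal protein genes lay lower in KO without overlap and 6 higher, with a median log2 change of −0.15 and Rpl17 the only 1 called. The medians of this list were −0.17 at 0 h and −0.18 at 8 h. Of 17 immediate early and short-lived genes, 9 lay higher and 1 lower, with a median of 0.98 and none called. Their medians were 0.73 at 0 h and 0.40 at 8 h. Ctgf, a matrix-associated growth factor, is also in the list of fibroblast and mesenchymal markers described above, so the lists are not separate. It had 183 and 217 in control and 407 and 505 in KO (adjusted p = 0.0588 after TMM scaling by limma). Over all genes tested 24.5% lay higher and 24.7% lower.

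Targets of Wnt signalling, which CHIR99021 turns on, were few. Of 7 tested, 4 lay lower and 1 higher, with a median of −0.99 after TMM scaling. Over all genes tested 24.7% lay lower and 24.5% higher. The median of these 7 was −0.78 at 0 h and 0.09 at 8 h. Axin2, a feedback inhibitor of the pathway, had 13.8 and 15.4 in control and 3.92 and 5.81 in KO (log2 change −1.70 after TMM scaling, adjusted p = 0.338), while Ccnd1, cyclin D1, had 145 and 215 against 347 and 383 (0.75, adjusted p = 0.111). Cdx1, an intestinal homeobox gene on chromosome 18, was called lower after TMM scaling. Of 14 p53 targets, 6 lay higher and 3 lower, and none was called. Ccng1 had 82.9 and 138 against 221 and 253 (log2 change 0.84 after TMM scaling, adjusted p = 0.135). Of 17 cell cycle genes, 4 lay higher (23.5%, near the share of all genes) and 8 lower (47.1%), with a median of −0.44 (−0.12 at 0 h and 0.09 at 8 h).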
